A study of Mus musculus with 6 samples.

Results

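Claudins are the membrane proteins that form the strands of tight junctions, the belts that join neighbouring epithelial cells. Some claudins seal the gap between cells, while others form pores that let sodium, calcium, magnesium, chloride or water pass along it. In the kidney each nephron segment carries its own set of them, and that set fixes what the segment can take back from the filtrate between its cells. The 10 claudin genes described here, Cldn1, Cldn2, Cldn3, Cldn4, Cldn5, Cldn7, Cldn8, Cldn10, Cldn16 and Cldn19, were taken by gene symbol from the deposited values and are 10 of 25805 genes listed there. Each symbol had 1 entry, and each claudin had reads in all 6 libraries, so all 10 passed the filter on low values.

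The transcripts were measured by RNA sequencing of total RNA from mouse kidney after ischaemia-reperfusion injury (IRI), in which the blood supply of the kidney is stopped and restored to model acute kidney injury. The groups were 3 libraries labelled knockout of Cxcr2, a chemokine receptor best known on neutrophils, after IRI and 3 libraries labelled wild type (WT) after IRI. With injury common to both groups and an uninjured kidney not analysed here, the values given are levels after injury and not a response to it. The sex and age of the mice, the duration of ischaemia, the time of sampling, the part of the kidney taken and the way in which Cxcr2 was deleted are not stated in the labels. Whether each library is a separate animal is not stated either, so the p-values stand for the spread between these samples only, and that spread may be technical.

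The libraries held 15518083 to 20356601 reads. Cxcr2 itself, a check of the labels, had 98.0, 36.8 and 56.6 normalized counts in labelled-knockout libraries 1 to 3, against 15.9, 88.8 and 56.9 in WT libraries 1 to 3. It was not lower in the labelled-knockout libraries, so groups are named by their labels throughout. Labelled-knockout library 1 stood apart on the first principal component, at -86.0 against 4.16 to 27.3 for the other 5. The 7 fat cell markers summed to 37546 normalized counts in that library, against 30.9 to 1679 in the other 5, and the 6 tubular injury markers to 120581, against 372655 to 678919. Defining markers of kidney segments, namely the proximal tubule, thick ascending limb, distal convoluted tubule and collecting duct, were present in all 6 libraries. Among them only Avpr2 was listed at 0, in labelled-knockout library 1 and WT library 3. In whole kidney, fewer cells of a type and less RNA per cell cannot be told apart.

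The genes differ in structure and place, and several have a claudin neighbour. In the deposited mm10 coordinates, Cldn1 (chr16:26356642-26371841, minus strand) and Cldn16 (chr16:26463135-26482765, plus strand) lie 91294 bases apart. Cldn4 (chr5:134945119-134946934, minus strand) and Cldn3 (chr5:134986214-134987472, plus strand) lie 39280 bases apart, with Cldn13 nearer to Cldn4 (29593 bases). Cldn8 (chr16:88560828-88563183, minus strand) lies 53850 bases from Cldn17. The others are Cldn2 (chrX:139800828-139811386), Cldn5 (chr16:18776847-18778262), Cldn7 (chr11:69964779-69967885), Cldn10 (chr14:118787908-118875489) and Cldn19 (chr4:119255414-119262438), all on the plus strand. In GENCODE M21, Cldn3, Cldn4, Cldn5 and Cldn8 consist of 1 exon. An antisense gene crosses an exon of Cldn3 (Wbscr25, listed at 3.09 normalized counts or less in each library) and of Cldn19 (Gm12927, 4.63 or less). The use of strand in counting is not given, but both antisense genes were near 0. Of all 50-base stretches of the 10 genes' transcripts, those found in the transcripts of another gene were 42 of 4263 in Cldn19, shared with Gm12927, and 0 in the other 9.

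Promoter windows are shown for 3 of these genes because the results below turn on them. Cldn10 has RefSeq starts 67079 bases apart whose transcripts are summed in its count, Cldn16 was the claudin with the smallest p, and Cldn2 was the most abundant. The windows run from 250 bases before to 50 bases after a RefSeq start (GRCm38.p6, plus strand). Capitals mark matches, on either strand, to any of 3 motifs, which do not overlap in these windows. The TATA box was searched as TATAAA. The GC box was searched as GGGCGG, and the grainyhead core as AACCNGTT.
Cldn10, upstream start, chr14:118787621-118787920: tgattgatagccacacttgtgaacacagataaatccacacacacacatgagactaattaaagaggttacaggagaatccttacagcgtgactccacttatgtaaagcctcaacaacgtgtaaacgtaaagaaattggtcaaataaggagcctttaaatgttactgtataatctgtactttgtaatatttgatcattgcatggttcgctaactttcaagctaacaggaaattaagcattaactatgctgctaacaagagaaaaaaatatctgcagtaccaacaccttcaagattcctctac
Cldn10, downstream start, chr14:118854700-118854999: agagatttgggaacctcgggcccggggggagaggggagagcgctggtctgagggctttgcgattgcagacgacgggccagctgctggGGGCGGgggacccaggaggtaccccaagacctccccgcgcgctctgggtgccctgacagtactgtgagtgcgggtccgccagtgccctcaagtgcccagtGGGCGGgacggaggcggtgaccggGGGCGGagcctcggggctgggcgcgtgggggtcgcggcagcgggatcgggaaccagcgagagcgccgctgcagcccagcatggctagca
Cldn16, chr16:26462885-26463184: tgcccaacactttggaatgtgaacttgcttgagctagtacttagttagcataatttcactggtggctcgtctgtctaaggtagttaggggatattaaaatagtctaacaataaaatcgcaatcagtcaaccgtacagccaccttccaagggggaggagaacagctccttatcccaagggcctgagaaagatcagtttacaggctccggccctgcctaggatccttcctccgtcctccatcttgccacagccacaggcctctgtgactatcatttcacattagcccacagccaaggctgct
Cldn2, chrX:139800558-139800857: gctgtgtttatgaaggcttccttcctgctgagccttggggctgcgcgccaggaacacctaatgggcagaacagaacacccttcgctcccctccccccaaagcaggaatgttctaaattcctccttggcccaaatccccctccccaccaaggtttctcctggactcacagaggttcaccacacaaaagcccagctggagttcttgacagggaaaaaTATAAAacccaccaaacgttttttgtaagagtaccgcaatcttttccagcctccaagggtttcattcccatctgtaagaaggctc
The upstream Cldn10 window was 36.0% G and C with no match, and the downstream one was 72.0% G and C with 3 GC boxes. The Cldn16 window also held no match, and the Cldn2 window held a TATA box 35 bases before the start. RefSeq gave 12 windows for 9 of the 10 genes, and both windows of Cldn19 overlap and hold the same 2 GC boxes. A GC box stood in 8 of these 12 and in 35.7% of all 32851 windows, a TATA box in 1 of 12 and 13.6%, and a grainyhead core in 1 of 12 and 2.09%. A match describes the letters only.

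Per kilobase of exon, Cldn2 and Cldn4 were the most abundant of the 10 claudins and Cldn19 and Cldn16 the least. Levels between genes are compared here as normalized counts divided by the exon length that the deposited files list. Cldn2 averaged 2662 per kilobase over the 6 libraries (range 1636 to 3411) and Cldn4 1598 (1201 to 2585). Cldn2 was above Cldn4 in 6 of 6 libraries, although their ranges overlapped. Cldn4 was above Cldn7 in 6 of 6 libraries with no overlap of their ranges. Cldn7 (577), Cldn3 (473), Cldn10 (457), Cldn5 (271), Cldn8 (269) and Cldn1 (242) followed, and each overlapped its neighbour in that order. Cldn1 was above Cldn19 (121) in 6 of 6 libraries, and Cldn19 above Cldn16 (115) in 3 of 6.

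**Figure D1:**
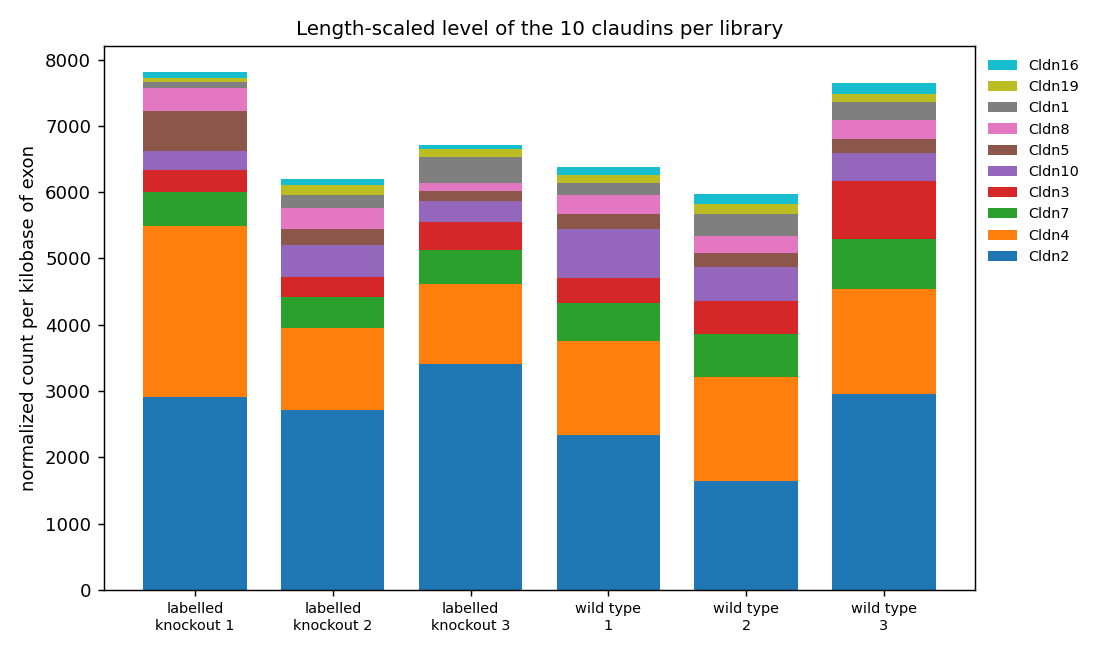
Stacked bars give the normalized count per kilobase of exon of the 10 claudins for labelled-knockout (left) and wild-type (right) libraries. Cldn2 and Cldn4, the lowest blocks, make up most of each bar, and the bars reach 5971 to 7815.8.

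The sum of the 10 levels per kilobase was 7815.8, 6198 and 6709.9 in labelled-knockout libraries 1 to 3, against 6382, 5971 and 7643 in WT libraries 1 to 3, and the groups overlapped. Within that sum, Cldn2 took 37.2%, 43.9% and 50.8% in labelled-knockout libraries and 36.6%, 27.4% and 38.7% in WT libraries. Cldn16 took 1.17%, 1.52% and 0.981% in labelled-knockout libraries, against 2.02%, 2.40% and 2.20% in WT libraries, with no overlap. Cldn7 took 6.43%, 7.71% and 7.58% in labelled-knockout libraries and 9.04%, 10.8% and 9.82% in WT libraries, also with no overlap. Cldn16 and Cldn7 are also the claudins whose levels did not overlap, so their shares are not a separate result. Each share also depends on Cldn2 and Cldn4, the largest parts of the sum.

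The comparison of the groups asks which claudins differ with the labelled Cxcr2 genotype after injury. Cldn16, Cldn7 and Cldn10, the 3 of smallest limma p, were lower on average in the labelled-knockout libraries, at 0.570, 0.754 and 0.655 of the WT mean. Cldn3 stood at 0.610 of its WT mean, and none of the 10 passed the test over all genes. By limma with Benjamini-Hochberg adjustment, 0 of the 10 had an adjusted p under 0.05, against 0.00460% (1 of 21721) of all tested genes. On the recovered reads edgeR also called 0 of the 10, against 0.00628% of all genes it tested, and DESeq2 0, against 1.95%. At an unadjusted limma p under 0.05 there were 3 of 10, all lower in the labelled-knockout libraries, against 6.14% of all tested genes in that direction, and 0 were higher, against 3.94%. Groups did not overlap for 2 of 10, Cldn16 and Cldn7, both lower, against 9.43% of all tested genes in that direction, and none was higher without overlap, against 8.27%. The median log2 fold change of the 10 was -0.35, with 7 lower and 3 higher, beside -0.0010 over all tested genes. Log2 fold changes are labelled knockout over WT on the log2(normalized count + 1) scale.

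**Figure D2:**
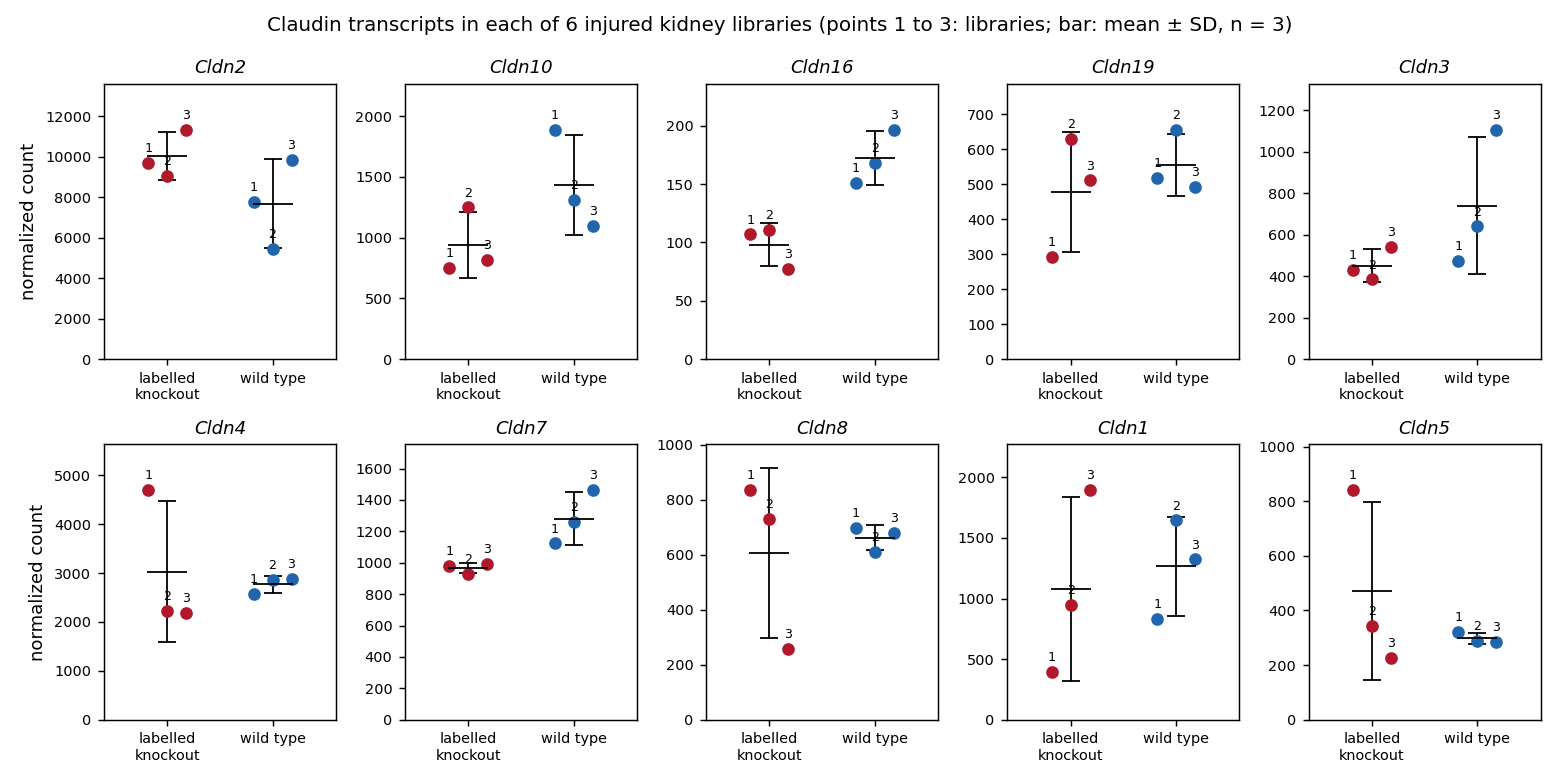
Each panel plots 1 claudin in normalized counts, with labelled-knockout libraries on the left and wild-type libraries on the right, as points numbered by library and a bar for the mean ± SD (n = 3). Points of the groups are apart in height only for Cldn16 and Cldn7, and labelled-knockout library 1 is the highest point for Cldn4, Cldn5 and Cldn8 and the lowest for Cldn1, Cldn10 and Cldn19.

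In the proximal tubule the main claudin is Cldn2, a pore for cations and water that lets sodium be taken back between cells. It had 9673, 9043 and 11340.1 normalized counts in labelled-knockout libraries 1 to 3, against 7772, 5440.3 and 9836 in WT libraries 1 to 3. Both lower labelled-knockout values stood between the highest and the middle WT value, so the groups overlapped. The means were 10019 ± 1187 and 7683 ± 2199 (SD, n = 3 each), a log2 fold change of 0.42 (SE 0.23, 95% interval -0.11 to 0.95, adjusted p = 0.572 by limma). Leaving out WT library 2 brought the log2 fold change to 0.19. The 10 proximal tubule markers summed to 66459 to 161096 normalized counts in labelled-knockout and 56682 to 99050.3 in WT libraries, with 8 of 10 higher, and their part in the Cldn2 values was not tested.

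The thick ascending limb takes back calcium and magnesium between its cells, and Cldn16 and Cldn19 form the junctions it needs for that. In people, loss of either gene causes familial wasting of magnesium and calcium. Cldn16 had 107, 110.4 and 77.2 normalized counts in labelled-knockout libraries 1 to 3, against 151, 168 and 197 in WT libraries 1 to 3. Every labelled-knockout value was below every WT value. The means were 98.2 ± 18.2 and 172 ± 23.0 (SD, n = 3 each), and its reads numbered 75 to 182. On the log2 scale the fold change came to -0.81 (SE 0.27, 95% interval -1.44 to -0.19, adjusted p = 0.423 by limma) and ran from -0.91 to -0.65 with 1 library left out. Cldn16 had the smallest p of the 10, at rank 834 of 21721 tested genes.

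Cldn19, the partner of Cldn16, did not separate the groups. It had 292, 629 and 510.5 normalized counts in labelled-knockout libraries 1 to 3, against 517, 656 and 491 in WT libraries 1 to 3. Labelled-knockout library 1 was well below the other 5, and WT library 2 was the highest. The log2 fold change was -0.28 (SE 0.29, 95% interval -0.93 to 0.37, adjusted p = 0.758 by limma) and 0.042 without labelled-knockout library 1. The log2 ratio of Cldn16 to Cldn19 was -1.44, -2.50 and -2.71 in labelled-knockout libraries, against -1.77, -1.96 and -1.32 in WT libraries. These ratios overlapped, with a difference of -0.54 (exact permutation p = 0.3, two-sided).

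Cldn10 has alternative first exons, whose products are a sodium pore of the thick limb and an anion pore of the proximal tubule, and the deposited count sums them. It had 748, 1248 and 817 normalized counts in labelled-knockout libraries 1 to 3, against 1889.9, 1313 and 1096 in WT libraries 1 to 3. Labelled-knockout library 2 lay within the WT range and the other labelled-knockout libraries below it. The means were 938 ± 271 and 1433 ± 411 (SD, n = 3 each), a log2 fold change of -0.61 (SE 0.26, 95% interval -1.20 to -0.02, adjusted p = 0.481 by limma), which was -0.39 without WT library 1. The log2 ratio of Cldn10 to Cldn2 was -3.69, -2.86 and -3.79 in labelled-knockout libraries and -2.04, -2.05 and -3.17 in WT libraries. Its difference of -1.03 had an exact permutation p of 0.2 (two-sided), and 3 against 3 cannot go below 0.1.

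**Figure D3:**
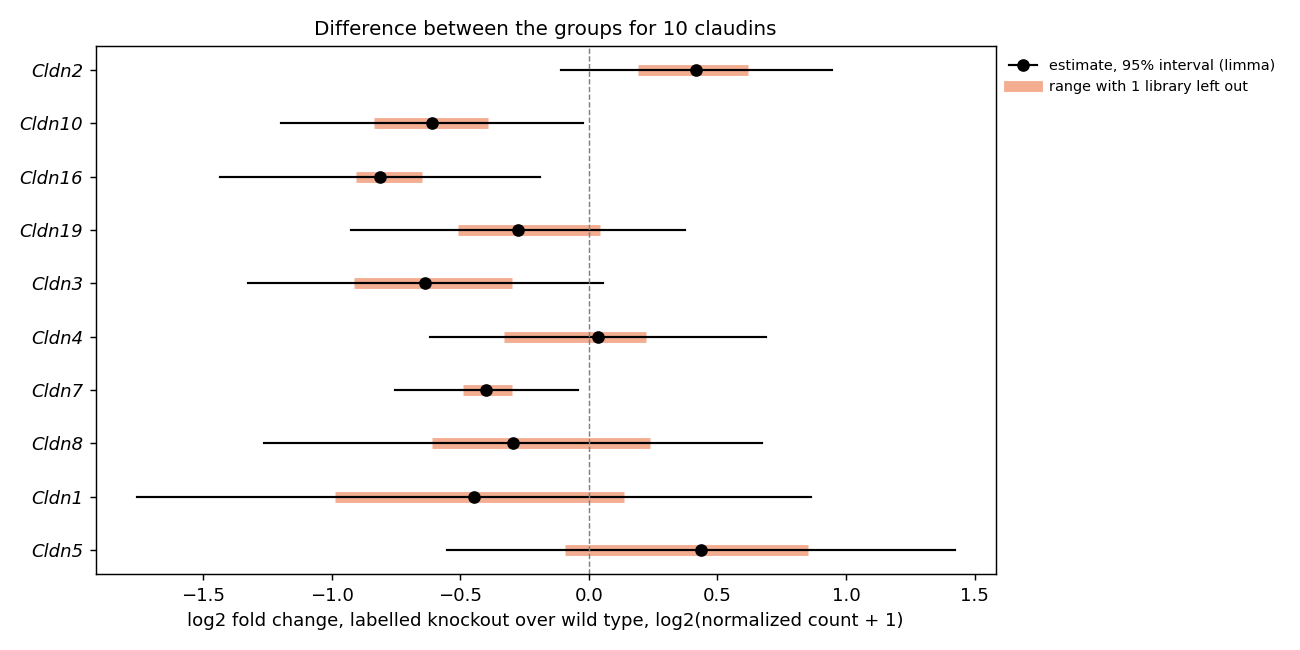
Points are log2 fold changes of labelled knockout over wild type for the 10 claudins, thin lines their 95% intervals from limma, and thick bars the range when each of the 6 libraries is left out in turn. The intervals of Cldn10, Cldn16 and Cldn7 lie below 0, and the thick bars of Cldn1, Cldn4, Cldn5, Cldn8 and Cldn19 cross 0.

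In the distal nephron and collecting duct, Cldn3, Cldn4, Cldn7 and Cldn8 make the tight epithelium in which the final urine is set, and Cldn4 and Cldn8 act together there as a chloride path. Cldn7, a claudin of the distal nephron and collecting duct also found on the basolateral membrane, had 979, 930.4 and 991 normalized counts in labelled-knockout libraries 1 to 3. In WT libraries 1 to 3 it had 1123, 1260.2 and 1462. The groups did not overlap, and the labelled-knockout libraries lay close together. The means were 967 ± 32.1 and 1282 ± 170.3 (SD, n = 3 each), a log2 fold change of -0.40 (SE 0.16, 95% interval -0.75 to -0.04, adjusted p = 0.458 by limma), from -0.49 to -0.30 with 1 library left out.

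Cldn3, a sealing claudin, had 429.9, 384 and 540.3 normalized counts in labelled-knockout libraries 1 to 3, against 473, 640.3 and 1108 in WT libraries 1 to 3. Labelled-knockout library 3 lay above WT library 1, so the groups overlapped, and WT library 3 was the highest of the 6. Its log2 fold change was -0.64 (SE 0.30, 95% interval -1.33 to 0.06, adjusted p = 0.524 by limma) and -0.30 without WT library 3.

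Cldn4 was high in 1 library. It had 4694, 2222 and 2181 normalized counts in labelled-knockout libraries 1 to 3, against 2574, 2855 and 2882 in WT libraries 1 to 3. Labelled-knockout library 1 was above all WT libraries and the other labelled-knockout libraries were below them. The log2 fold change was 0.034 (SE 0.29, 95% interval -0.62 to 0.69, adjusted p = 0.976 by limma). Leaving out labelled-knockout library 1 gave -0.33, and leaving out WT library 1 gave -0.018.

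Cldn8 was low in 1 library, at 834, 729 and 256 normalized counts in labelled-knockout libraries 1 to 3, against 697, 611 and 678 in WT libraries 1 to 3. Labelled-knockout library 3 was below the other 5, and labelled-knockout libraries 1 and 2 were above all WT libraries. The log2 fold change was -0.30 (SE 0.42, 95% interval -1.26 to 0.67, adjusted p = 0.831 by limma) and 0.24 without labelled-knockout library 3. The 8 collecting duct markers, which include the water channel Aqp2, summed to 23945, 16075 and 3306 normalized counts in labelled-knockout libraries 1 to 3. In WT libraries 1 to 3 they summed to 12820.4, 10366 and 16479, so they too were lowest in labelled-knockout library 3.

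The 2 claudins found mainly outside the tubule varied most for their level within the labelled-knockout group, ahead of Cldn8. Cldn1, the claudin of the parietal cells that line Bowman's capsule, had 398, 947 and 1893 normalized counts in labelled-knockout libraries 1 to 3, against 833, 1644 and 1323 in WT libraries 1 to 3. The labelled-knockout libraries held both the lowest and the highest of the 6 values, a 4.76-fold range. Its log2 fold change was -0.45 (SE 0.55, 95% interval -1.76 to 0.86, adjusted p = 0.807 by limma) and 0.13 without labelled-knockout library 1. The 6 tubular injury markers, among them Havcr1 (KIM-1) and Lcn2 (NGAL), summed to 120581, 372655 and 678919 in the 3 labelled-knockout libraries, against 383373, 494269 and 501753 in WT libraries 1 to 3. Both Cldn1 and that sum were lowest in labelled-knockout library 1 and highest in labelled-knockout library 3, and a link was not tested. Most of the sum was Spp1 (osteopontin), with 554166 normalized counts in labelled-knockout library 3. Lcn2 also rose from labelled-knockout library 1 to 3, with 4180.1, 7747 and 11101. Unlike Spp1, it was below every WT value in each of them. In WT libraries 1 to 3 Lcn2 had 14679, 27779 and 18445 (adjusted p = 0.383 by limma and 0.0208 by DESeq2). The groups did not overlap for Clu either, which was highest in WT library 3. Without overlap 2 of the 6 were lower, against 9.43% of all tested genes, and 0 higher, against 8.27%. Not all 6 rose from labelled-knockout library 1 to 3. Havcr1 did, with 1321, 22632 and 54545, but Clu peaked in library 2 of that group, with 15494, 51072 and 43891. Within that group Krt8 was highest in library 1 (16326, 13026 and 13304) and Krt18 lowest in library 3 (2125, 2143 and 1912).

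Cldn5, the claudin of endothelial junctions, had 839.8, 345 and 226 normalized counts in labelled-knockout libraries 1 to 3, against 321, 289.6 and 284 in WT libraries 1 to 3. Library 1 was far above the other 5 and labelled-knockout library 3 below them. The log2 fold change was 0.44 (SE 0.43, 95% interval -0.55 to 1.42, adjusted p = 0.744 by limma) and -0.092 without labelled-knockout library 1. The 9 other endothelial markers summed to 11458, 10580.1 and 5082 normalized counts in labelled-knockout libraries 1 to 3. In WT libraries 1 to 3 they summed to 17109, 20389 and 12323. These sums did not overlap between groups, and 8 of 9 markers were lower in the labelled-knockout libraries. The fat cell markers were highest in labelled-knockout library 1 as well, and their part in the Cldn5 value was not tested.

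To set each claudin beside the cells that carry it, its log2 level was taken relative to the mean log2 level of markers of 1 segment in the same library. Cldn8 kept nearly the same level relative to the collecting duct markers, at 0.22, 0.036 and 0.48 in the 3 labelled-knockout libraries, against 0.054, 0.46 and 0.46 in WT libraries 1 to 3. Over the 6 libraries the SD of this log2 ratio was 0.21, against 0.61 for the log2 level of Cldn8 and 0.75 for that of the markers. The 8 markers include Avpr2, at 0 to 5 reads per library, and the ratio was not taken without it. The ratios of Cldn7 (SD 0.80), Cldn4 (0.67) and Cldn3 (1.04) to the same markers varied more than the log2 levels of these genes (0.25, 0.40 and 0.55), and all were highest in labelled-knockout library 3.

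Against the thick limb markers Slc12a1, Umod, Kcnj1 and Egf, Cldn16 stood at -6.58, -4.64 and -3.82 in the 3 labelled-knockout libraries, against -3.92, -4.65 and -4.57 in WT libraries 1 to 3. Cldn10 and Cldn19 had their lowest ratios in labelled-knockout library 1 as well, at -3.78 and -5.14. In that library Slc12a1, the sodium-potassium-chloride carrier of the thick limb, had 8146 normalized counts, against 660 to 6622 in the other 5, and Egf had 14554, against 258 to 609. The other markers stood out less there. Kcnj1 had 2155, against 563 to 2091, and Umod had 43839, below WT libraries 2 and 3 (56794 and 58057). The groups overlapped for the ratios of Cldn10, Cldn16 and Cldn19. Cldn16 thus had no overlap between groups as a level, but overlapped relative to these markers (difference -0.63, exact permutation p = 0.8, and 0.15 without labelled-knockout library 1).

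Relative to the 9 endothelial markers, Cldn5 was higher in every labelled-knockout library, at -0.46, -1.41 and -1.02, against -2.28, -2.60 and -1.81 in WT libraries. The difference was 1.26 on the log2 scale (exact permutation p = 0.1, two-sided, the smallest that 3 against 3 can give), and it ran from 1.01 to 1.49 with 1 library left out. This was 1 of 10 such ratios. Among the levels of all tested genes, 8.27% were higher and 9.43% lower without overlap. The lack of overlap therefore does not by itself set Cldn5 apart. On the log2 scale the 9 endothelial markers differed by -0.83 on average and Cldn5 itself by 0.44, each with overlap of the groups, so the larger part of the ratio's difference lay in the markers. Cldn2 relative to the proximal tubule markers averaged 0.62 ± 0.74 in labelled-knockout and 0.74 ± 0.30 in WT libraries (SD, n = 3 each). Cldn1 relative to podocyte markers, used here for the glomerulus, averaged -0.31 ± 1.31 and 0.35 ± 0.62.

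**Figure D4:**
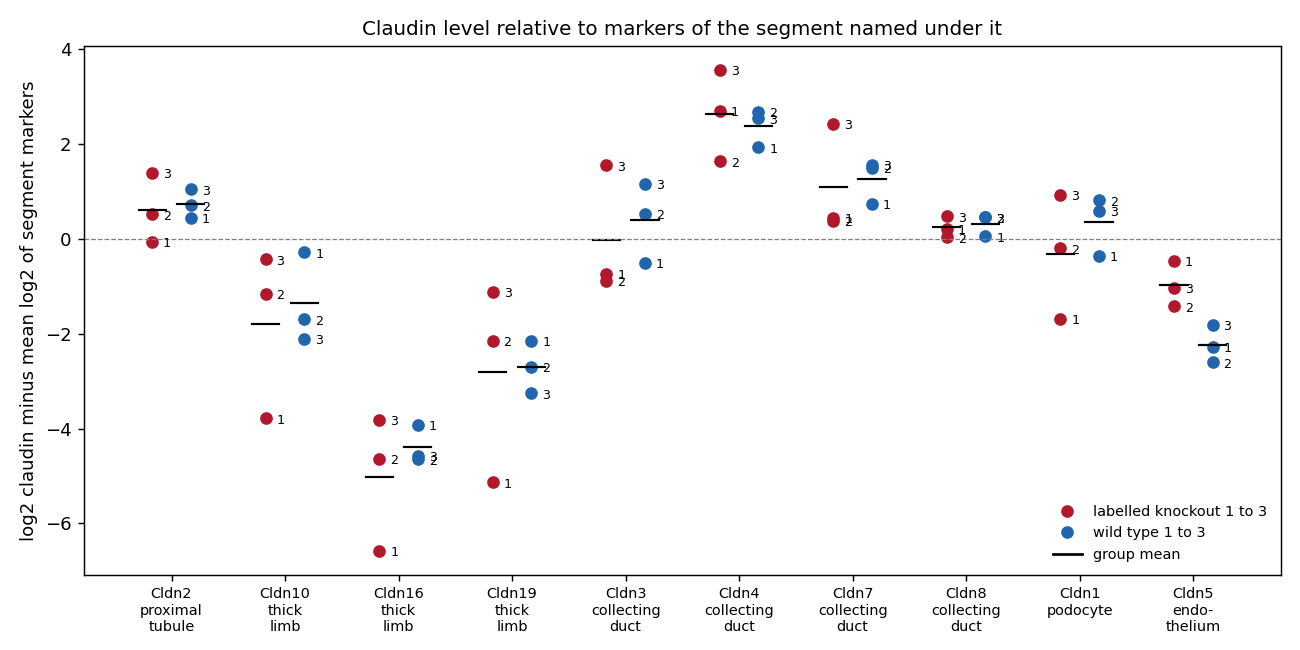
Points give each claudin's log2 level minus the mean log2 level of the markers named under it, for labelled-knockout libraries 1 to 3 (left of each pair) and wild-type libraries 1 to 3 (right), with a line at the group mean. The groups are apart for Cldn5, and the 6 points of Cldn8 lie between 0.036 and 0.48.

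The other claudins of the files gave a wider spread, and several were near 0. Cldn20, Cldn18 and Cldn9 had at most 7, 8 and 13 reads per library, against at least 75 for each claudin described above. Of the 11 other claudins listed, 10 had a mean of at least 1 normalized count, 3 higher and 7 lower, with a median log2 fold change of -0.43. By limma 0 of 10 passed, with 2 higher and 1 lower at an unadjusted p under 0.05, against 3.94% and 6.14% of all tested genes. DESeq2 called 1, Cldn15, against 1.95% of all genes, and edgeR called 0. Cldn15, a sodium pore best known from the intestine, had 141, 225 and 105 normalized counts in labelled-knockout libraries 1 to 3, against 409, 614 and 382 in WT libraries 1 to 3. The groups did not overlap, and the log2 fold change was -1.61 (SE 0.32, adjusted p = 0.368 by limma and 0.00269 by DESeq2). Of the 10 tested, 2 were higher and 1 lower without overlap, against 8.27% and 9.43% of all tested genes. Cldn12, linked to calcium uptake, had 1601, 1480.3 and 1731 in labelled-knockout and 1281, 1182 and 1229.8 in WT libraries (log2 fold change 0.38, SE 0.14, adjusted p = 0.451 by limma). The 4 of smallest p also held Cldn20, at 0 to 7 reads per library, and Cldn23 (-0.78, SE 0.45, adjusted p = 0.58 by limma).

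Among 26 scaffold, adhesion and polarity genes of tight junctions, such as occludin and cingulin, 25 could be tested and 0 passed limma, edgeR or DESeq2. At an unadjusted p under 0.05, 3 were higher and 0 lower, beside 3.94% and 6.14% of all tested genes, and the median log2 fold change was 0.15. The polarity kinase Prkcz had 1427, 1383 and 1328 normalized counts in labelled-knockout libraries, against 1178, 776 and 1027 in WT libraries (log2 fold change 0.49, SE 0.18, adjusted p = 0.444 by limma). The adhesion molecule Jam3 had 459, 356 and 435 in labelled-knockout libraries, against 273, 333 and 241 in WT libraries (0.56, SE 0.21, adjusted p = 0.445 by limma). Neither gene's groups overlapped, and neither passed. Of the 25, 5 were higher and 0 lower without overlap, against 8.27% and 9.43% of all tested genes. Esam, an endothelial adhesion molecule, had a log2 fold change of -0.65 (SE 0.30, adjusted p = 0.51 by limma).

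Of 22 genes for claudin regulators and for tubular calcium and magnesium handling, 0 passed limma or edgeR and DESeq2 called 2, both higher, against 1.95% of all genes. At an unadjusted limma p under 0.05, 3 were higher and 1 lower, against 3.94% and 6.14% of all tested genes, with a median log2 fold change of 0.18. Trpv5, the apical calcium channel of the distal convoluted and connecting tubule, had 1115, 574 and 468 normalized counts in labelled-knockout libraries, against 313, 208 and 199 in WT libraries. Its log2 fold change was 1.51 (SE 0.34, adjusted p = 0.373 by limma and 0.00572 by DESeq2). The 4 distal convoluted tubule markers summed to 34075, 16091 and 6454 normalized counts in labelled-knockout libraries and 16707, 10127 and 13739 in WT libraries, and their part in the Trpv5 values was not tested. Cnnm2, a magnesium transport protein of the distal tubule, had 1105, 759 and 758 in labelled-knockout libraries, against 431, 353 and 472 in WT libraries (1.05, SE 0.21, adjusted p = 0.368 by limma and 0.00762 by DESeq2). Fxyd2, a subunit of the sodium pump, had 25053, 23604 and 21452 in labelled-knockout libraries, against 31595, 31558 and 32273 in WT libraries, with no overlap (-0.45, SE 0.16, adjusted p = 0.437 by limma). Of the 22, 4 were higher and 1 lower without overlap, against 8.27% and 9.43% of all tested genes.

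**Figure D5:**
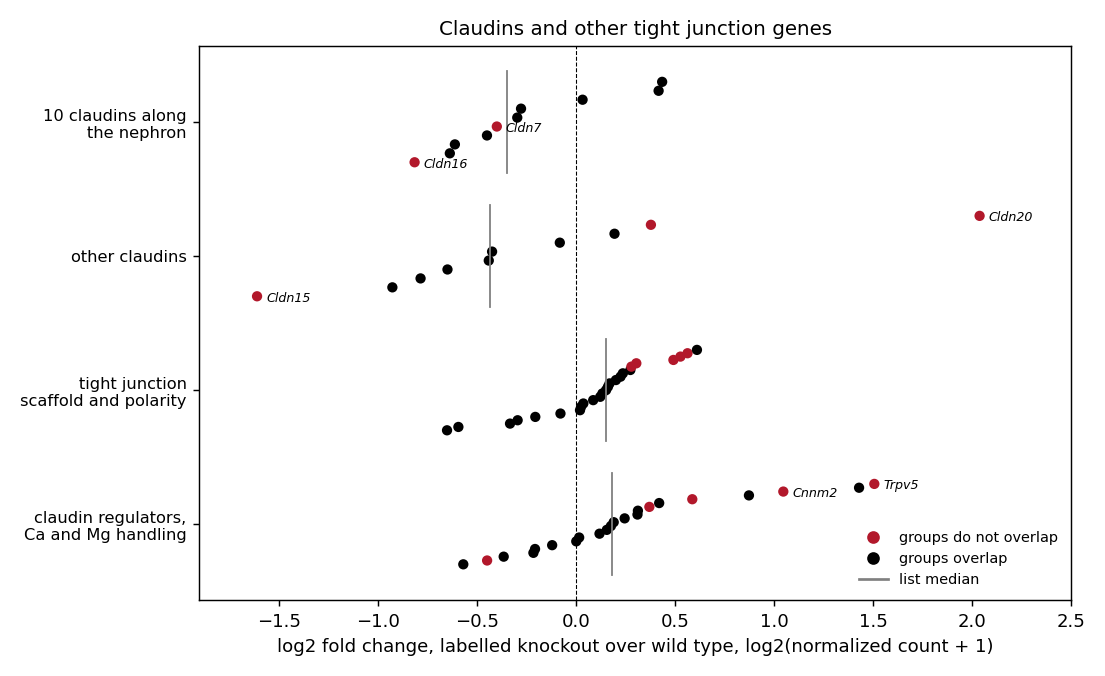
Each point is the log2 fold change of 1 gene, labelled knockout over wild type, in the 10 claudins, the other claudins, tight junction scaffold and polarity genes, and claudin regulators with calcium and magnesium genes. Red points are genes whose groups do not overlap, and grey lines mark list medians of -0.35, -0.43, 0.15 and 0.18 from top to bottom.

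The pattern of each claudin over the 6 libraries was also set beside that of 11938 other protein-coding genes with a mean of at least 50 normalized counts. Likeness is the root mean square difference of log2 values after each gene is centred on its own mean. A small value means a similar course, but genes that vary little are also close to each other. The closest pair among the claudins was Cldn7 and Cldn16 (0.28), then Cldn3 and Cldn7 (0.30) and Cldn4 and Cldn5 (0.33), while Cldn1 and Cldn5 were farthest apart (1.33). Cldn7 varied least of the claudins described here (SD 0.25). Its median difference from the 11938 genes was 0.37, against 0.54 for Cldn16. Tuba4a (0.031) and Nfatc2ip came closest to Cldn7, and Ccdc136 (0.13) and Pkn3 to Cldn16. For Cldn2 the closest were Kctd21 (0.042) and Cyb561a3, and for Cldn10 they were Efemp1 (0.098) and Pycard. Hirip3 (0.087) and Zfp956 came closest to Cldn19, Papln (0.079) and Pex11a to Cldn3, and Ypel3 (0.062) and Spry4 to Cldn4. For Cldn8 the closest were Colgalt2 (0.10) and Itga2b, for Cldn1 Spcs3 (0.14) and Steap1, and for Cldn5 Fam13a (0.090) and Ank2. With 6 libraries and so many genes, close matches are a description only.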

How the data were processed

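Each deposited value is a signal of 1 gene in 1 library, a normalized count. The values show that the authors divided whole reads by a single factor for each library. In every library 100% of the values were whole multiples of 1 step within 0.001 reads, so whole reads were recovered. The build was mm10, per the submitters' processing notes. The aligner, counter, annotation release and use of strand are not stated in the labels. Groups and replicate numbers come from the titles.

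The test was limma 3.58.1 (trend, robust) in R 4.3.3 on log2(normalized count + 1) over the 21721 genes whose mean reached 1, with Benjamini-Hochberg adjustment over all of them. The reads recovered from the deposited values were also tested with edgeR 4.0.16 (TMM, 15915 genes) and DESeq2 1.42.0 (16222 genes). Ratios within a library were compared with exact permutation tests (scipy 1.17.1), 10 for segment markers and 5 for claudin pairs. The tests were tried on simulated counts. Pairs of libraries differed beyond sampling noise (31.1 to 162 for chi-square over its degrees of freedom), so none was counted as a repeat. From each further list the 4 genes of smallest p are named, except that some are not reported here, and for each claudin the 2 genes of most similar course. Promoter sequences are from RefSeq (GRCm38.p6) and gene structures from GENCODE M21. The claudins and lists were chosen with earlier results of these data known. Alternatives were other tests, TMM scaling, pseudocounts of 0.1 and 5, other filters, a replicate block and each library left out.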

Additional observations from a re-analysis of the deposited data

How the results depend on the processing

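No claudin was called under any alternative run here, and the smallest adjusted p over them was 0.142 (Cldn16, DESeq2). Cldn16, Cldn7, Cldn10 and Cldn3 stayed lower and Cldn2 higher under each. Claudins at an unadjusted p under 0.05 numbered 1 to 4, with 1 without WT library 2. Over all genes, calls numbered 1 by limma and 316 by DESeq2, 4 after TMM scaling, 5 with a pseudocount of 5, 5 without a filter and 1 to 6 with 1 library left out (6 without labelled-knockout library 1, 3 without library 3). An alternative chosen after seeing the data left out WT library 1 and labelled-knockout library 2. These had the highest median of the 7 urothelium markers (3.26 and 1.87, log2 relative to the WT mean). By summed normalized counts of these markers, labelled-knockout library 2 was instead the lowest, at 2958. Without both libraries, 0 genes were called by limma (1309 at an unadjusted p under 0.05) and the claudin median was -0.52. That median was -0.22 with edgeR and with DESeq2, and -0.50 to -0.29 with 1 library left out. The cause of these shifts was not tested. Whether replicate numbers pair the samples was not settled (correlation of same-numbered deviations 0.067, -0.15 and 0.12). Labelled-knockout library 2 was closer to WT library 1 (0.20). Labelled-knockout libraries 1 and 3 were closest to their same-numbered WT library, library 3 only narrowly (0.11 with WT library 2). With a replicate block 16 genes and 0 claudins were called.

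With 1 library left out, log2 fold changes changed sign for Cldn1 (-0.99 to 0.13), Cldn4 (-0.33 to 0.22), Cldn5 (-0.092 to 0.85), Cldn8 (-0.61 to 0.24) and Cldn19 (-0.51 to 0.042). The difference relative to segment markers ran from -1.29 to 0.016 for Cldn1, -0.50 to 0.23 for Cldn2, -1.21 to 0.013 for Cldn3, -0.21 to 0.75 for Cldn4, -0.85 to 0.17 for Cldn7 and -0.22 to 0.026 for Cldn8. It ran from -1.11 to 0.57 for Cldn10, -1.23 to 0.15 for Cldn16 and -0.94 to 1.07 for Cldn19, which was 0.0083 with the marker median as the base. The difference in log2 ratio ran from -0.72 to 0.016 for Cldn8 over Cldn4 and -0.66 to 0.20 for Cldn7 over Cldn8. Signs of these ratios changed without labelled-knockout library 1 (Cldn1, Cldn2, Cldn7, Cldn10, Cldn16, Cldn19 and Cldn7 over Cldn8), library 2 (Cldn3, Cldn7, Cldn8 and Cldn7 over Cldn8), library 3 (Cldn4 and Cldn8 over Cldn4), WT library 1 (Cldn10 and Cldn19) or WT library 3 (Cldn2). With 3 libraries a group, a claudin not called may still differ: the interval of Cldn1 spanned -1.76 to 0.86.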
